A study of Mus musculus with 16 samples.

Results

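The genes described here encode the surface receptors by which macrophages and osteoclast precursors read sugars, lipids and dying cells: the C-type lectin (Clec), Siglec, CD300, leukocyte immunoglobulin-like (Lilr), paired immunoglobulin-like type 2 (Pilr) and four-transmembrane MS4A families. Members were the protein-coding genes with these name stems among the genes that the authors kept for analysis. Of 63 such names in the count table of the first experiment, 39 were kept and 24 were not, and of 62 in the second, 37 were kept and 25 were not. These 39 genes, of 10954 kept in either table, comprised 14 Clec, 4 Siglec, 8 Cd300, 3 Lilr, 3 Pilr and 7 Ms4a genes. Cd300lg and Ms4a4c were kept in the first table only, so 37 genes could be tested in both. Genes that were not kept had few counts, the highest library standing at a scaled count (CPM) of 1.98 of Siglecg in the first experiment and 3.57 CPM of Ms4a1 (CD20 of B cells) in the second, and they were not tested. A gene was kept when it reached about 3 CPM (read counts scaled to library size) in a group, so a receptor made in 1 condition alone was retained through that condition. For such a gene the filter favours a difference with that condition higher, and the p-values do not allow for this.

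mRNA of bone marrow-derived macrophages (BMMs) from female mice was sequenced in 2 experiments. In the SREBP2 experiment, cells of the strain SREBP2floxflox LysM cre (SREBP2ΔM), in which the lysozyme M promoter drives Cre in myeloid cells and removes SREBP2, were compared with control cells of LysM cre littermates, so that both genotypes carried the Cre. In the IRF7 experiment, cells of IRF7 deficient mice (IRF7KO) were compared with those of C57BL6 mice (WT). Cells of each genotype were grown in M-CSF, supplied as L929 cell supernatant at 23.3 ng/mL, and either left as macrophages or differentiated for 3 days with added RANKL, as osteoclasts. RANKL was at 40 ng/mL per the sample labels, whereas the study's methods give another value. Mouse age was not given in the labels. Each of the 8 groups held 2 libraries, which the study calls biological replicates without naming the mouse or culture of each, so the p-values measure the spread between these libraries. For a single value, 2 libraries against 2 allow no two-sided exact permutation p under 0.333.

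Depth was 7703178 to 13387849 counts per library (SREBP2 experiment) and 8178505 to 12746916 (IRF7 experiment), so 1 count was worth 0.0747 to 0.130 and 0.0785 to 0.122 CPM. Srebf2 and Irf7 levels matched the genotype labels, with log2 fold changes of -9.10 and -5.23 in deficient osteoclasts. The 10 osteoclast markers summed to 81.3 to 149 CPM in M-CSF and 32005 to 77025 CPM with RANKL, and the 8 macrophage markers to 6054 to 7145 and 3654 to 6517 CPM. Calcr, a late osteoclast marker, had no count in any macrophage library. Most markers of other cells were lower with RANKL: the 9 neutrophil genes summed to 65.1 to 1167 CPM in M-CSF and 4.50 to 18.9 CPM with RANKL, the 3 monocyte genes to 57.1 to 106 and 3.95 to 11.6, the 5 B cell genes to 4.09 to 27.4 and 0.260 to 0.729, and the 3 platelet genes to 6.38 to 24.4 and 0 to 0.693. The 3 endothelial genes summed to 8.34 to 40.9 and 4.57 to 13.4 CPM, the 3 eosinophil genes to 3.01 to 13.9 and 0.459 to 2.92, the 4 mast cell and basophil genes to 1.10 to 7.69 and 0 to 1.39, the 4 stromal genes to 0.0793 to 9.75 and 0 to 2.50, and the 4 dendritic cell genes to 2.65 to 6.51 and 2.75 to 7.92. Of the 5 T and NK cell genes, 4 had no count in any RANKL library, and Ebf1 (B cell), Gp9 (platelet), Mcpt8 (basophil), Epx and Prg3 (eosinophil) and Tek (endothelial) had none either. The part of these cells in the falls described below was not tested. In bulk RNA, fewer cells of a type and less mRNA per cell cannot be told apart.

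As background, most of these receptors signal through tyrosines. Activating members have short tails and borrow the ITAM motif of the adaptors DAP12 (Tyrobp) or FcRγ (Fcer1g), which recruit the kinase Syk. Inhibitory members carry an ITIM in their own tail and recruit the phosphatases encoded by Ptpn6, Ptpn11 and Inpp5d. DAP12 and FcRγ also supply the co-stimulatory signal that RANKL needs to form osteoclasts. MS4A proteins span the membrane several times and sit beside other receptors, and Siglecs bind sialic acid.

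The letters of 5 short motifs, each named for a factor known from this lineage, were looked up in the promoters of the members, since IRF7 is an interferon regulatory factor and RANKL acts through AP-1 and NFAT. RefSeq promoters (GRCm38.p6, 250 bases before and 50 bases from the transcription start on) were matched for 31 of the 39 members, and 34 promoters of these were read on both strands. The interferon-stimulated response element core (a pair of GAAA runs on 1 strand with any 2 bases between them) was present in 3.44% of all 32851 promoters and in those of 7 members (Cd300c2, Clec2d, Clec4b1, Clec4d, Pilra, Pilrb1 and Pilrb2). The AP-1-like letters TGANTCA, with any base at N, were present in 7.81% of all promoters and in 4 members. They read TGACTCA in Clec4a2 and Ms4a14, TGAATCA in Clec12a and TGATTCA in Ms4a7, so the search was looser than a single fixed site. The PU.1 core GAGGAAGT was present in 3.20% of all promoters and in 4 members (Cd300ld, Cd300ld3, Cd300lf and Lilra6). The NFAT core TGGAAA was present in 21.4% of all promoters and in 14 members, and the E-box CATGTG in 14.2% and 11 members. In 4 of the 7 response elements the NFAT letters lay inside the match, so those matches overlap. A match is a run of letters and not a measured binding site.

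The promoters below carry the response element in members that moved in opposite directions under RANKL. All are written 5′ to 3′ on the strand of the gene, with the matched letters (GAAA and GAAA, or TTTC and TTTC where the match is on the other strand, with the 2 bases between) in capitals. They lie at chr6:129180365-129180664 on the plus strand (Clec2d, which rose with RANKL), chr6:123261857-123262156 on the plus strand and chr6:123049712-123050011 on the plus strand (Clec4d and Clec4b1, which fell), chr11:115001831-115002130 on the minus strand (Cd300c2, which fell), and chr5:137836229-137836528 on the minus strand (Pilra, which fell in control cells).
Clec2d: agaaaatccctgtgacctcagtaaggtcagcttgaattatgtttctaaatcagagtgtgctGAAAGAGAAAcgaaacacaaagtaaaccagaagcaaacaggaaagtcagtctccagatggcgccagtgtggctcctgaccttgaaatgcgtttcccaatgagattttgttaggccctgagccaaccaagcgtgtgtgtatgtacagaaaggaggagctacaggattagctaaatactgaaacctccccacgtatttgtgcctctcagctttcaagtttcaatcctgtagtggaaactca
Clec4d: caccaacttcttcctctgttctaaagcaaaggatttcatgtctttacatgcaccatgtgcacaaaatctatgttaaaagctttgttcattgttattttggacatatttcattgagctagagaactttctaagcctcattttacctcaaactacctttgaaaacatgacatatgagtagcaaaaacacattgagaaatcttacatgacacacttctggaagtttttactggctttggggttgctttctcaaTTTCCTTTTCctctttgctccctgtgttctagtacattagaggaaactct
Clec4b1: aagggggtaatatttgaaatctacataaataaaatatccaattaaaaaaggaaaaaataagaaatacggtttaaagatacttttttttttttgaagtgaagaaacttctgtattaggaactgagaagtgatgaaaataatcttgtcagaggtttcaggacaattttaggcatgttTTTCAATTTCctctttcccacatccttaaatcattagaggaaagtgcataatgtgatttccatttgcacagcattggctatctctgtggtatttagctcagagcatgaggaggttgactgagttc
Cd300c2: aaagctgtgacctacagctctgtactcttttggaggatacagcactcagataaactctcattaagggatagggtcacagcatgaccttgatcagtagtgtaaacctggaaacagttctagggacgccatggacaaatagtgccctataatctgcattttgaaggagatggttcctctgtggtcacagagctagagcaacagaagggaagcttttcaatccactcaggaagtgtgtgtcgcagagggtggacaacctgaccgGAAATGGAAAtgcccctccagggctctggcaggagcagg
Pilra: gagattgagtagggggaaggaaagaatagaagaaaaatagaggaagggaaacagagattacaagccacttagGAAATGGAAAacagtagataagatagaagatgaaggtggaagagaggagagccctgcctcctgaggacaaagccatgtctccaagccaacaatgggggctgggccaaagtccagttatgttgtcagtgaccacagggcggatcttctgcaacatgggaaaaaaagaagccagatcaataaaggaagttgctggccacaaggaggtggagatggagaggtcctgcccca
The match began 189 bases before the start in Clec2d, 75 before it in Clec4b1, 178 before it in Pilra, at the start itself in Clec4d and 11 bases after it in Cd300c2.

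The AP-1-like letters are shown in 1 promoter of a member that rose (Clec4a2, chr6:123122440-123122739, plus strand, TGACTCA 31 bases after the start). They are also shown in 1 of a member that fell (Ms4a7, chr19:11334646-11334945, minus strand, TGATTCA 81 bases before the start). The other Ms4a7 promoter read, chr19:11336097-11336396, lacks these letters. The match is again in capitals.
Clec4a2: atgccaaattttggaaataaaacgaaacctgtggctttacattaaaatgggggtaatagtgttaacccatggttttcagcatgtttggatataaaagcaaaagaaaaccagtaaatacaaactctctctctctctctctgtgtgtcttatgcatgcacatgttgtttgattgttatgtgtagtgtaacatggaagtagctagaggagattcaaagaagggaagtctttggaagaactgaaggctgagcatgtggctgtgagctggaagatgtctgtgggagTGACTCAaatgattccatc
Ms4a7: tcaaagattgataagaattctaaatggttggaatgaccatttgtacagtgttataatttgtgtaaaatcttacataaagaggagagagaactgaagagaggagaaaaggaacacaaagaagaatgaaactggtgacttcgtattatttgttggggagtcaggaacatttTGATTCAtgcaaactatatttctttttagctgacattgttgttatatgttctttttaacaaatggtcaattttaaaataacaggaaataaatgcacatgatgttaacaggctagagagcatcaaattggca
The Pilra promoter also shares its sequence with those of its activating partners. With an offset of 54 bases, 242 of 246 bases were identical between Pilra and Pilrb1 (98.4%) and 244 of 246 between Pilra and Pilrb2 (99.2%), and the Pilrb1 and Pilrb2 promoters were identical at 292 of 300 bases (97.3%).

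Differentiation moved most of the receptors, and more of them down than up. In control cells RANKL raised 10 and lowered 22 of the 39 members at an adjusted p under 0.05 (edgeR quasi-likelihood test, adjusted over all 10764 genes), beside 29% of all genes raised and 28.6% lowered. In WT cells 8 of 37 rose and 21 fell, beside 24.9% and 22.5% of 10788 genes. SREBP2ΔM cells gave 9 higher and 22 lower (all genes 28.6% and 27.6%), and IRF7KO cells 8 higher and 25 lower (25.8% and 23.5%). The median log2 fold change of the members was -0.93 in control, -1.12 in SREBP2ΔM, -1.51 in WT and -1.92 in IRF7KO cells, whereas that of all genes was 0.00 in control, 0.01 in SREBP2ΔM, 0.01 in WT and 0.00 in IRF7KO cells. Of the macrophage markers 6 of 8 fell in control and 7 of 8 in WT cells, and all 8 neutrophil markers tested were lower in both. The summed level of the macrophage markers did not fall in control cells, at 6161 to 6793 CPM in macrophages and 6186 to 6517 CPM in osteoclasts. In WT cells it went from 6192 to 7145 CPM in macrophages to 3654 to 4214 CPM in osteoclasts. Together the members took 3857 and 4237 CPM in control macrophages and 2836 to 3073 CPM in control osteoclasts, and 3308 and 4365 CPM in WT macrophages and 1742 to 1768 CPM in WT osteoclasts. The same 8 members rose in control and in WT cells, beside 21.6% of all genes, and the same 17 fell, beside 18.2%. In all 4 genotypes 8 rose and 15 fell in each, beside 20.2% and 16.3% of all genes. The families differed: 7 of 14 Clec genes rose and 5 fell in control cells (6 and 5 in WT), whereas none of the Cd300 genes rose and 6 of 8 fell (7 of 7 in WT).

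**Figure D1:**
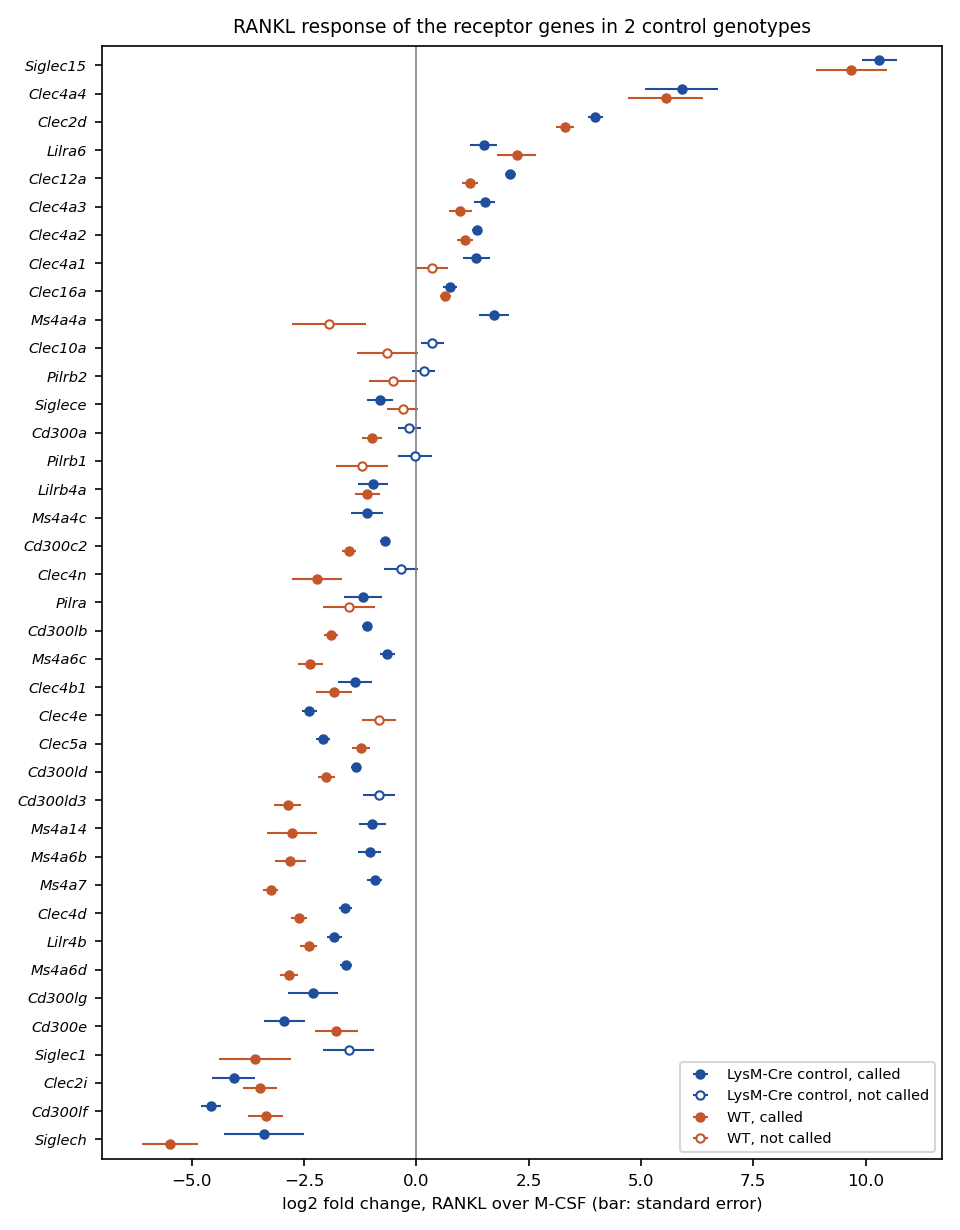
Log2 fold change of RANKL over M-CSF for each member (points, with standard errors) in control and WT cells, filled where the adjusted p is under 0.05 and ordered by the mean of both. Siglec15 lies at the top and Siglech at the bottom, and 34 of 37 members tested in both have the same sign, whereas Ms4a4a is at 1.72 in control and -1.94 in WT cells; the fitted values of Siglec15, Clec4a4 and Siglech rest on 0 to 5 counts per library in their low group.

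Siglec15, which pairs with DAP12 and is needed for osteoclasts to mature, appeared with RANKL. It stood at 0.0788 and 0 CPM in control and 0.0793 and 0 CPM in WT macrophages, and at 60.1 and 65.3 CPM in control and 54.3 and 30.8 CPM in WT osteoclasts. Each M-CSF group held a single Siglec15 count over its 2 libraries. The counts gave a ratio of 1688 in control (exact 95% counting interval 302 to 66706) and 985 in WT cells (176 to 38946), and the adjusted p of the edgeR test was 3.36e-07 and 5.82e-05. Deficient osteoclasts held 52.9 and 53.5 CPM (SREBP2ΔM) and 63.0 and 32.9 CPM (IRF7KO). Intervals and floors of this kind cover counting error only.

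Clec4a4 (DCIR2), an inhibitory lectin best known from dendritic cells, appeared with RANKL at a low level. It reached about 3 CPM in osteoclasts alone and was kept through those groups, so the filter favoured a rise. It was 0 and 0.142 CPM in control macrophages and 3.44 and 6.84 CPM in control osteoclasts, a ratio of 71.0 by counts (19.2 to 594). In WT cells it went from 0.159 and 0.163 to 4.86 and 11.0 CPM, a log2 fold change of 5.55 ± 0.83, adjusted p = 0.00173. With no count in deficient macrophages, Clec4a4 was at least 25.0-fold higher in SREBP2ΔM (2.92 and 5.12 CPM) and at least 44.5-fold higher in IRF7KO osteoclasts (3.49 and 9.22 CPM), against a floor of 3 counts over the group. In each genotype the second osteoclast library held the larger value, and without it the fitted WT change was log2 fold change 4.82, adjusted p = 0.0057. Clec4a4 shares 15.7% of its 50-base stretches with other genes, Clec4a2 holding the largest part, so part of its reads could belong to them.

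Clec2d, the osteoclast inhibitory lectin and a ligand of an NK cell receptor, rose in every genotype. In the SREBP2 experiment it went from 5.44 and 4.39 to 81.7 and 73.7 CPM in control and from 4.82 and 6.16 to 74.5 and 69.7 CPM in SREBP2ΔM cells. In the IRF7 experiment it went from 6.50 and 6.05 to 69.1 and 55.9 CPM in WT and from 6.54 and 7.26 to 59.0 and 44.9 CPM in IRF7KO cells. No osteoclast library overlapped a macrophage library, and the change was a log2 fold change of 3.98 ± 0.17, adjusted p = 7.2e-07, in control and a log2 fold change of 3.31 ± 0.19, adjusted p = 1.51e-05, in WT cells. Its neighbour Clec2i, a ligand of the same receptor family, moved the other way. It fell from 5.99 and 8.57 to 0.208 and 0.606 CPM in control (log2 fold change -4.07 ± 0.47, adjusted p = 0.000113) and from 5.95 and 7.11 to 0.639 and 0.536 CPM in WT cells (log2 fold change -3.47 ± 0.38, adjusted p = 0.000223). Deficient cells held 6.38 and 9.29 CPM and then 0.278 and 0.394 CPM (SREBP2ΔM), and 8.63 and 6.82 and then 0.459 and 0.862 CPM (IRF7KO). Without the second control osteoclast library the control change was log2 fold change -5.07, adjusted p = 0.000411. Both genes are read from the plus strand of chromosome 6, Clec2i from position 128887588 and Clec2d from 129180615 (mm10).

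Clec12a, an inhibitory receptor for uric acid crystals and dead cells, became the most abundant member per length of transcript. In osteoclasts it stood at 144 ± 13.7 CPM per kb in control and 103 ± 15.0 CPM per kb in WT cells (mean ± SD of 2 libraries). Its libraries held 193 and 181 CPM in control, 189.8 and 187 CPM in SREBP2ΔM, 219 and 278 CPM in WT and 267 and 301 CPM in IRF7KO macrophages. Osteoclasts held 849 and 742 CPM in control, 977 and 864 CPM in SREBP2ΔM, 630.2 and 513 CPM in WT and 644 and 532 CPM in IRF7KO cells. The lowest osteoclast library lay above the highest macrophage library in each experiment, with a log2 fold change of 2.09 ± 0.12, adjusted p = 3.31e-06, in control and a log2 fold change of 1.20 ± 0.18, adjusted p = 0.000948, in WT cells.

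**Figure D2:**
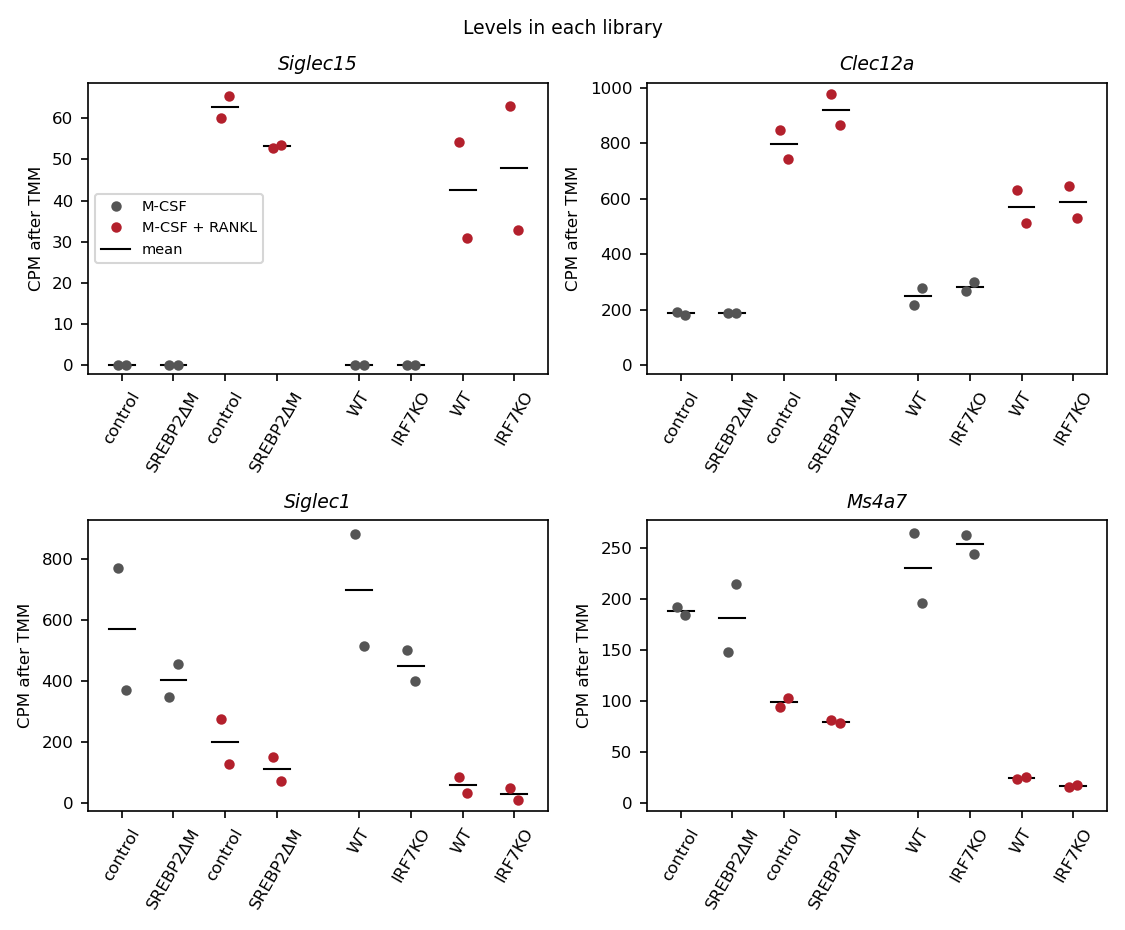
CPM after TMM of Siglec15, Clec12a, Siglec1 and Ms4a7 in each library (points) of the 8 groups, with the group mean as a line, the SREBP2 experiment on the left and the IRF7 experiment on the right of each panel. Siglec15 is near 0 in all M-CSF libraries and between 30.8 and 65.3 CPM in osteoclasts, Clec12a is higher with RANKL, and Siglec1 and Ms4a7 are lower with RANKL in each genotype.

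Before RANKL the order of levels was different. Clec4d (MCL), which recognises mycobacterial lipid with Mincle, led the macrophages at 398 ± 56.2 CPM per kb in control and 381 ± 27.5 CPM per kb in WT cells, ahead of Ms4a6d at 150.2 ± 4.25 and 138 ± 34.1 CPM per kb. Cd300c2, Cd300ld, Cd300lb and Siglec1 followed in control cells, from 113 ± 2.14 CPM per kb (Cd300c2) to 79.7 ± 39.5 CPM per kb (Siglec1), and Siglec1 did not differ from its neighbours in this order beyond its spread. In osteoclasts Clec12a, Clec4d and Clec4a2 led in both experiments.

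The 8 members of the Dectin-2 and DCIR cluster on chromosome 6 split in part, the Clec4a genes against the others. Between positions 122921848 and 123289870 (mm10) the order is Clec4a1, Clec4a3, Clec4a4, Clec4b1, Clec4a2, Clec4n, Clec4d and Clec4e. In control cells the 4 Clec4a genes rose, 3 of the other 4 (Clec4b1, Clec4d and Clec4e) fell, and Clec4n was not called. In WT cells 3 of the 4 Clec4a genes rose, Clec4b1, Clec4n and Clec4d fell, and Clec4a1 and Clec4e were not called.

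**Figure D3:**
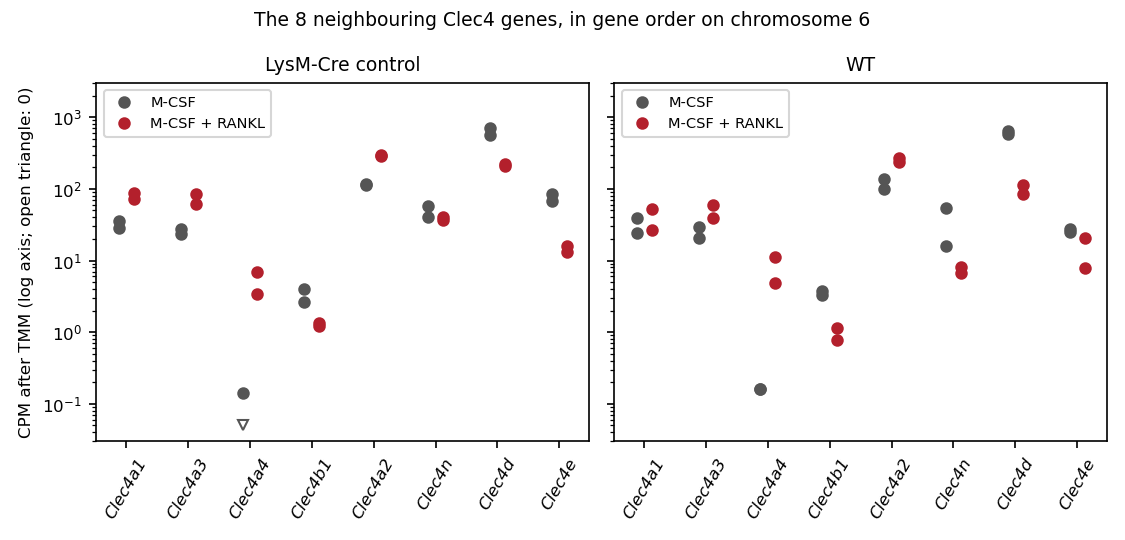
CPM after TMM (the scaling of library sizes in edgeR) on a log axis of the 8 neighbouring Clec4 genes in chromosome order, control cells on the left and WT cells on the right, with each macrophage library in grey and each osteoclast library in red, and an open triangle for a library at 0. The 4 Clec4a genes lie higher with RANKL in control cells and the other 4 lower, and Clec4d is the highest of the 8 in macrophages.

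Among the risers, Clec4a2 (DCIR1), which carries an ITIM, held 115 and 115 CPM in control macrophages and 286 and 297 CPM in control osteoclasts (log2 fold change 1.34 ± 0.11, adjusted p = 1.93e-05). WT cells held 137 and 101 and then 239 and 266 CPM (log2 fold change 1.09 ± 0.18, adjusted p = 0.00164). SREBP2ΔM cells went from 108 and 126 to 327 and 305 CPM and IRF7KO cells from 139 and 115 to 235 and 272 CPM. Clec4a3 (DCIR3) went from 27.5 and 23.7 to 60.8 and 85.9 CPM in control (log2 fold change 1.52 ± 0.23, adjusted p = 0.000686) and from 29.7 and 20.9 to 39.2 and 59.9 CPM in WT cells (log2 fold change 0.98 ± 0.25, adjusted p = 0.0138). Deficient macrophages held 21.0 and 26.8 CPM (SREBP2ΔM) and 21.7 and 19.8 CPM (IRF7KO), and deficient osteoclasts 41.6 and 61.3 CPM (SREBP2ΔM) and 30.4 and 40.3 CPM (IRF7KO). The WT call of Clec4a3 was lost without the second WT macrophage library (log2 fold change 0.75, adjusted p = 0.0927) or the second WT osteoclast library (log2 fold change 0.63, adjusted p = 0.0838). Clec4a1 (DCIR4) rose in control cells, from 35.1 and 28.2 to 72.3 and 87.3 CPM (log2 fold change 1.34 ± 0.31, adjusted p = 0.00729), whereas in WT cells the libraries overlapped, at 39.0 and 24.4 and then 26.8 and 53.0 CPM (log2 fold change 0.35 ± 0.36, adjusted p = 0.461). Its control call was lost without the second control macrophage library (log2 fold change 1.19, adjusted p = 0.0601).

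The activating members of the cluster pair with FcRγ and sense fungi and mycobacteria. Clec4d fell from 573 and 700.4 to 206 and 220.3 CPM in control (log2 fold change -1.58 ± 0.14, adjusted p = 3e-05) and from 641 and 579 to 84.1 and 114 CPM in WT cells (log2 fold change -2.62 ± 0.18, adjusted p = 2.78e-05). It held 623 and 665 CPM and then 170.0 and 205 CPM in SREBP2ΔM, and 686 and 603 and then 74.6 and 86.4 CPM in IRF7KO cells, so that no osteoclast library reached a macrophage library in any genotype. Clec4e (Mincle) fell from 67.9 and 84.6 to 13.1 and 16.0 CPM in control (log2 fold change -2.38 ± 0.16, adjusted p = 6.26e-06). In WT cells it was lower at the start, at 27.6 and 24.7 CPM, and stood at 7.80 and 20.7 CPM with RANKL (log2 fold change -0.84 ± 0.38, adjusted p = 0.109). Clec4n (Dectin-2) held 40.4 and 57.3 CPM in control macrophages and 40.2 and 36.4 CPM in osteoclasts (log2 fold change -0.35 ± 0.38, adjusted p = 0.459), and fell from 53.5 and 15.9 to 6.77 and 8.04 CPM in WT cells (log2 fold change -2.22 ± 0.56, adjusted p = 0.0127). It was log2 fold change -2.84, adjusted p = 0.00152, without the second WT macrophage library. That WT call was lost without the first macrophage library (log2 fold change -1.09, adjusted p = 0.0609) and without either osteoclast library (log2 fold change -2.11, adjusted p = 0.0648 and log2 fold change -2.36, adjusted p = 0.0571). Clec4b1 (DCAR) was low throughout, at 2.60 and 4.04 CPM in control macrophages and 1.35 and 1.21 CPM in control osteoclasts (log2 fold change -1.37 ± 0.38, adjusted p = 0.0126), and its control call was lost without the second macrophage library (log2 fold change -1.02, adjusted p = 0.0988) or the second osteoclast library (log2 fold change -1.31, adjusted p = 0.0648).

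Outside the cluster, Clec5a (MDL-1), which signals through DAP12 and DAP10, fell in all genotypes. Macrophage libraries held 116 and 127 CPM (control), 108 and 99.3 CPM (SREBP2ΔM), 76.8 and 61.4 CPM (WT) and 93.3 and 75.2 CPM (IRF7KO). Osteoclast libraries held 24.8 and 32.7 CPM (control), 27.4 and 28.7 CPM (SREBP2ΔM), 24.2 and 34.2 CPM (WT) and 27.5 and 29.6 CPM (IRF7KO), with no overlap. The change was a log2 fold change of -2.08 ± 0.15, adjusted p = 9.67e-06, in control and a log2 fold change of -1.23 ± 0.20, adjusted p = 0.00155, in WT cells. Clec16a, an endosomal regulator of autophagy that bears the family name without being a surface receptor, rose from 21.8 and 21.2 to 32.8 and 39.3 CPM in control (log2 fold change 0.74 ± 0.16, adjusted p = 0.00331) and from 21.1 and 21.8 to 35.1 and 32.1 CPM in WT cells (log2 fold change 0.64 ± 0.12, adjusted p = 0.00281). Deficient cells went from 17.7 and 22.5 to 31.9 and 32.9 CPM and from 23.3 and 24.9 to 38.5 and 36.0 CPM. Clec10a (MGL1), which binds galactose, was not called in either control genotype, with 17.1 and 11.5 and then 22.3 and 14.4 CPM in control cells (log2 fold change 0.35 ± 0.25, adjusted p = 0.252).

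Clec7a (Dectin-1), the receptor for fungal beta-glucan, is annotated as a polymorphic pseudogene in these tables and so is no member, but it was set to be reported beside them. RANKL raised it in the SREBP2 experiment and lowered it in the IRF7 experiment. It went from 20.9 and 17.5 to 71.6 and 52.9 CPM in control (log2 fold change 1.70 ± 0.24, adjusted p = 0.000405) and from 13.4 and 16.9 to 45.9 and 29.9 CPM in SREBP2ΔM cells (log2 fold change 1.32 ± 0.25, adjusted p = 0.00208). It went from 19.5 and 18.6 to 10.2 and 9.26 CPM in WT (log2 fold change -0.97 ± 0.22, adjusted p = 0.00772) and from 22.6 and 24.8 to 8.36 and 5.09 CPM in IRF7KO cells (log2 fold change -1.82 ± 0.23, adjusted p = 0.000389). The macrophage levels of control and WT cells overlapped, and the osteoclast levels did not. Ms4a4a, a membrane partner of Dectin-1 in macrophages, lay the same way. It rose from 6.86 and 5.03 to 23.5 and 15.7 CPM in control cells (log2 fold change 1.72 ± 0.34, adjusted p = 0.00243), whereas WT cells held 5.71 and 1.14 and then 1.15 and 0.689 CPM (log2 fold change -1.94 ± 0.82, adjusted p = 0.0869). SREBP2ΔM cells held 4.34 and 7.04 and then 12.4 and 7.21 CPM (log2 fold change 0.77 ± 0.36, adjusted p = 0.104), and IRF7KO cells 3.14 and 1.52 and then 0.459 and 0.172 CPM (log2 fold change -2.87 ± 0.98, adjusted p = 0.0418). The IRF7KO call of Ms4a4a was lost without any 1 of its 4 libraries (adjusted p from 0.0518 to 0.202), and the WT change passed the threshold without the second WT macrophage library (log2 fold change -2.67, adjusted p = 0.0164). The difference between experiments was not tested, because the experiment and the control genotype cannot be told apart.

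**Figure D4:**
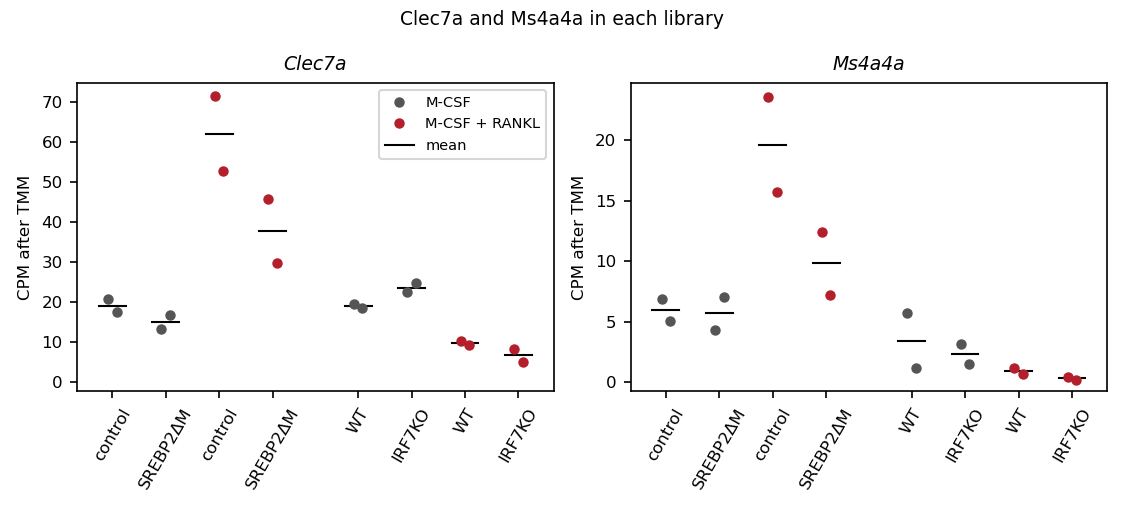
CPM after TMM of Clec7a and Ms4a4a in each library (points) of the 8 groups, with the group mean as a line, the SREBP2 experiment on the left and the IRF7 experiment on the right. Control osteoclasts (71.6 and 52.9 CPM of Clec7a) lie above control macrophages, whereas WT osteoclasts (10.2 and 9.26 CPM) lie below WT macrophages.

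The other 3 Siglecs had log2 fold changes below 0 in control and in WT cells. Siglec1 (CD169), a macrophage receptor for sialic acid that interferon induces, held 769 and 369.8 CPM in control and 883 and 514 CPM in WT macrophages. Osteoclasts held 275 and 126 CPM in control and 85.9 and 31.2 CPM in WT cells. Both macrophage libraries lay above both osteoclast libraries, but libraries of 1 group differed widely, and the change in control cells was not called (log2 fold change -1.51 ± 0.57, adjusted p = 0.0631), whereas that of WT cells was (log2 fold change -3.59 ± 0.80, adjusted p = 0.00744). Deficient macrophages held 348 and 456 CPM (SREBP2ΔM) and 501 and 398 CPM (IRF7KO), and deficient osteoclasts 151 and 71.1 CPM (SREBP2ΔM) and 48.0 and 7.67 CPM (IRF7KO). The WT change was log2 fold change -4.48, adjusted p = 0.0162, without the first WT osteoclast library. The control change passed the threshold without the second macrophage library (log2 fold change -1.94, adjusted p = 0.0465). Siglech, which pairs with DAP12 and marks plasmacytoid dendritic cells and microglia, was low at the start, with 1.5 and 5.73 CPM in control and 4.20 and 5.48 CPM in WT macrophages. Group means reached about 3 CPM only in control macrophages in the SREBP2 experiment, and only in macrophages in the IRF7 experiment, so the filter favoured a fall. It stood at 0.521 and 0.173 CPM in control osteoclasts (log2 fold change -3.40 ± 0.89, adjusted p = 0.0103) and at 0.128 and 0.0765 CPM in WT osteoclasts, where 120 counts faced 2, a ratio of 50.4 (13.7 to 421, adjusted p = 0.000267, edgeR). Without the first macrophage or first osteoclast library the control change was larger (log2 fold change -4.05, adjusted p = 0.00379, and log2 fold change -4.30, adjusted p = 0.027). The control call was lost without the second macrophage library (log2 fold change -2.12, adjusted p = 0.0933) or the second osteoclast library (log2 fold change -2.79, adjusted p = 0.0674). The 3 plasmacytoid dendritic cell markers summed to at most 1.62 CPM in M-CSF and 0.208 CPM with RANKL, and their part in the fall was not tested. Siglech was at 0.843 and 1.66 CPM and then 0.278 and 0 CPM in SREBP2ΔM, and 3.75 and 5.52 and then 0.0918 and 0 CPM in IRF7KO cells. Siglece, an ITIM receptor, held 6.54 and 6.94 and then 4.69 and 3.03 CPM in control cells (log2 fold change -0.81 ± 0.29, adjusted p = 0.0397), a call lost without the first macrophage library (log2 fold change -0.85, adjusted p = 0.0975), the second (log2 fold change -0.77, adjusted p = 0.136) or the second osteoclast library (log2 fold change -0.55, adjusted p = 0.22). It was not called in WT cells (log2 fold change -0.31 ± 0.34, adjusted p = 0.479).

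The log2 fold change of every CD300 gene tested was below 0 with RANKL, in each of the 4 genotypes. These receptors bind lipids of dying cells, and 7 of the 8 lie in a single cluster on chromosome 11. Cd300lf (CLM-1), an inhibitory member known to restrain osteoclast formation, fell most, from 39.2 and 42.3 to 1.56 and 1.82 CPM in control (log2 fold change -4.57 ± 0.22, adjusted p = 1.15e-06) and from 18.0 and 26.6 to 2.81 and 1.68 CPM in WT cells (log2 fold change -3.36 ± 0.38, adjusted p = 0.00027). SREBP2ΔM cells went from 37.8 and 34.0 to 2.09 and 1.18 CPM and IRF7KO cells from 14.5 and 23.6 to 1.56 and 1.03 CPM. The highest osteoclast library of either experiment, 2.81 CPM, lay far below the lowest macrophage library, 14.5 CPM. Cd300e (CLM-2), a DAP12 partner of monocytes, fell from 9.22 and 7.43 to 0.625 and 1.47 CPM in control (log2 fold change -2.94 ± 0.46, adjusted p = 0.00065) and from 4.99 and 5.97 to 0.767 and 2.22 CPM in WT cells (log2 fold change -1.79 ± 0.48, adjusted p = 0.0167). Deficient cells went from 9.51 and 6.55 to 0.418 and 1.31 CPM (SREBP2ΔM) and from 4.01 and 2.92 to 1.01 and 1.81 CPM (IRF7KO). Without the second osteoclast library the change was larger in control (log2 fold change -3.73, adjusted p = 0.00152) and in WT cells (log2 fold change -2.82, adjusted p = 0.00789). Its WT call was lost without the second macrophage library (log2 fold change -1.66, adjusted p = 0.0762) or the first osteoclast library (log2 fold change -1.30, adjusted p = 0.0651).

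The most abundant CD300 genes kept a part of their level. Cd300lb (CLM-7), a DAP12 partner, went from 250.4 and 261 to 114 and 125 CPM in control (log2 fold change -1.10 ± 0.11, adjusted p = 6.44e-05) and from 298 and 276 to 67.7 and 85.2 CPM in WT cells (log2 fold change -1.91 ± 0.15, adjusted p = 5.28e-05). Cd300c2 (CLM-4) went from 142 and 145 to 88.8 and 86.8 CPM in control (log2 fold change -0.71 ± 0.10, adjusted p = 0.000464) and from 140.3 and 130.1 to 43.5 and 51.6 CPM in WT cells (log2 fold change -1.51 ± 0.15, adjusted p = 0.000157). Cd300a, an inhibitory receptor for phosphatidylserine, was not called in control cells, where the osteoclast libraries at 68.2 and 107 CPM enclosed those of macrophages at 90.4 and 105 CPM. It fell in WT cells (log2 fold change -0.99 ± 0.22, adjusted p = 0.00786), a call lost without the first macrophage library (log2 fold change -0.88, adjusted p = 0.0518). Cd300lg, which lies apart from the cluster and is known from endothelium, fell in control cells from 4.81 and 4.46 to 0.417 and 1.39 CPM (log2 fold change -2.30 ± 0.56, adjusted p = 0.00691). Without the second control osteoclast library its change was log2 fold change -3.46, adjusted p = 0.00555. The 3 endothelial markers summed to 34.9 to 40.0 CPM in those macrophages and 11.9 to 13.4 CPM in the osteoclasts, and their part was not tested.

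Of the MS4A genes, which lie side by side on chromosome 19, 6 of 7 fell in control and 5 of 6 in WT cells, Ms4a4a being the other in each. Ms4a6d went from 266 and 255 to 79.5 and 96.2 CPM in control (log2 fold change -1.57 ± 0.13, adjusted p = 2.3e-05) and from 281 and 197 to 32.2 and 34.8 CPM in WT cells (log2 fold change -2.83 ± 0.20, adjusted p = 3.17e-05). It held 215 and 239.7 and then 66.3 and 77.3 CPM in SREBP2ΔM, and 224 and 189.5 and then 28.7 and 34.4 CPM in IRF7KO cells. Ms4a7, a marker of resident macrophages, went from 192 and 185 to 94.1 and 103 CPM in control (log2 fold change -0.93 ± 0.16, adjusted p = 0.00128) and from 265 and 196 to 23.1 and 25.3 CPM in WT cells (log2 fold change -3.25 ± 0.17, adjusted p = 1.05e-05). SREBP2ΔM cells held 148 and 215 and then 80.9 and 78.4 CPM, and IRF7KO cells 263 and 245 and then 15.6 and 17.2 CPM. WT osteoclasts held less Ms4a7 than control osteoclasts, whereas WT macrophages did not hold less than control macrophages. The tables were normalised separately and this difference was not tested.

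Ms4a6b and Ms4a14 also had the larger change in WT cells. Ms4a6b went from 87.6 and 49.3 to 36.5 and 30.0 CPM in control (log2 fold change -1.04 ± 0.25, adjusted p = 0.00792) and from 77.7 and 41.5 to 6.90 and 9.87 CPM in WT cells (log2 fold change -2.80 ± 0.35, adjusted p = 0.000408), and the control call was lost without the second osteoclast library (log2 fold change -0.94, adjusted p = 0.0552). Deficient cells held 53.7 and 61.9 and then 19.5 and 22.2 CPM (SREBP2ΔM), and 45.3 and 32.1 and then 5.42 and 4.48 CPM (IRF7KO). Ms4a14 went from 24.2 and 18.9 to 13.6 and 8.31 CPM in control (log2 fold change -0.98 ± 0.31, adjusted p = 0.0244) and from 32.2 and 13.7 to 5.11 and 1.99 CPM in WT cells (log2 fold change -2.77 ± 0.56, adjusted p = 0.00485). The WT change of Ms4a14 ran from -3.52 without the first osteoclast library to -2.01 without the first macrophage library and -2.17 without the second osteoclast library, on the log2 scale. Its control call was lost without the first macrophage library (log2 fold change -0.79, adjusted p = 0.13) or the second osteoclast library (log2 fold change -0.68, adjusted p = 0.131). Deficient cells held 12.5 and 22.2 and then 8.35 and 7.74 CPM (SREBP2ΔM), and 21.8 and 12.9 and then 2.30 and 1.47 CPM (IRF7KO). Of the 17 members that fell in control and in WT cells, 13 had the larger change in WT cells, as did 53.2% of the 1924 genes that fell in both. The median log2 fold change of the macrophage markers was -0.70 in control and -2.14 in WT cells, and their part was not tested. The 2 experiments were not tested against each other.

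The paired immunoglobulin-like genes moved in both directions. Lilra6, an activating partner of FcRγ, rose from 4.49 and 5.52 to 11.2 and 17.1 CPM in control (log2 fold change 1.5 ± 0.30, adjusted p = 0.00268) and from 3.17 and 4.90 to 12.3 and 25.2 CPM in WT cells (log2 fold change 2.23 ± 0.44, adjusted p = 0.00406). It held 2.53 and 3.81 and then 8.91 and 13.8 CPM in SREBP2ΔM, and 3.57 and 5.63 and then 12.8 and 20.9 CPM in IRF7KO cells. Without the second WT osteoclast library the WT change was log2 fold change 1.60, adjusted p = 0.0201. Lilr4b fell from 374 and 401 to 118 and 101 CPM in control (log2 fold change -1.82 ± 0.17, adjusted p = 3.94e-05) and from 366 and 269 to 58.8 and 61.8 CPM in WT cells (log2 fold change -2.39 ± 0.19, adjusted p = 4.86e-05), and held 322 and 464 and then 94.5 and 92.9 CPM in SREBP2ΔM, and 301 and 295 and then 50.4 and 38.6 CPM in IRF7KO cells. Its neighbour Lilrb4a, an ITIM receptor, fell from 146 and 123 to 91.7 and 46.9 CPM in control (log2 fold change -0.96 ± 0.33, adjusted p = 0.04), a call lost without either macrophage library (log2 fold change -0.84, adjusted p = 0.157 and log2 fold change -1.08, adjusted p = 0.0848) or without the second osteoclast library (log2 fold change -0.58, adjusted p = 0.0894). Pilra, the inhibitory PILR, fell from 95.3 and 71.0 to 48.2 and 24.9 CPM in control (log2 fold change -1.19 ± 0.42, adjusted p = 0.0458), whereas its activating partners Pilrb1 (8.91 and 8.99 and then 11.8 and 5.89 CPM) and Pilrb2 (9.22 and 7.65 and then 10.9 and 7.97 CPM) were not called in those cells. The Pilra call was lost without either macrophage library (log2 fold change -0.96, adjusted p = 0.178 and log2 fold change -1.39, adjusted p = 0.0762) or the second osteoclast library (log2 fold change -0.81, adjusted p = 0.159). SREBP2ΔM cells gave the same calls, with Pilra lower (log2 fold change -1.40 ± 0.43, adjusted p = 0.0299) and neither partner called (-0.22 and -0.04 on the log2 scale). That Pilra call was lost without the first macrophage library (log2 fold change -1.15, adjusted p = 0.121) or the second osteoclast library (log2 fold change -0.98, adjusted p = 0.118). In WT cells the 3 genes lay below 0 and none was called (Pilra log2 fold change -1.51 ± 0.58, adjusted p = 0.0649, with log2 fold changes of -1.22 for Pilrb1 and -0.52 for Pilrb2). In IRF7KO cells all 3 were lower, from 63.5 and 25.2 to 13.4 and 9.14 CPM for Pilra (log2 fold change -1.98 ± 0.59, adjusted p = 0.0245), from 9.41 and 5.09 to 2.66 and 1.21 CPM for Pilrb1 (log2 fold change -1.92 ± 0.58, adjusted p = 0.0269) and likewise for Pilrb2 (log2 fold change -1.61 ± 0.55, adjusted p = 0.0431). Each of these 3 calls was lost without the first IRF7KO macrophage library (-1.16, -1.40 and -0.84 on the log2 scale) or the second IRF7KO osteoclast library (-1.73, -1.45 and -1.13), and that of Pilra also without the first osteoclast library.

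Several of these genes share sequence with others, and how the authors' counting split such reads is not given in the sources used here. Lilra6 shared 31.3% of its 50-base stretches with Pirb, Lilr4b 24.5% with Lilrb4a, Lilrb4a 46.7% with Gm49339, Cd300ld3 82.1% with Cd300ld5, Ms4a6c 10.5% with Ms4a6b, and Pilrb1 and Pilrb2 30.1% and 29.2% with each other. In addition 53.1% of the exon length of Ms4a6c is covered by BE692007 and 15.1% of that of Pilra by Zcwpw1, both on the opposite strand. On the same strand, 35.3% of the exon length of Lilrb4a is covered by other genes. These values are reported as uncertain for that reason.

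By signalling type, RANKL raised 2 and lowered 9 of 14 activating members in control cells, with the same counts in WT cells. Of 9 members listed as inhibitory it raised 3 and lowered 5 in control cells (3 and 4 in WT). The median log2 fold changes of the activating and inhibitory lists were -1.22 and -0.81 in control, and -1.65 and -0.99 in WT cells. The inhibitory list includes Lilr4b, which is among the 5 lowered in control and the 4 lowered in WT cells. Unlike for its neighbour Lilrb4a, no ITIM is given for it above, so its place in this list is not established here. Of 16 genes that carry the signal onward, 8 rose and 6 fell in control and 4 rose and 6 fell in WT cells. The shares over all genes were 29% raised and 28.6% lowered in control, and 24.9% and 22.5% in WT cells. Syk rose (1.21 ± 0.16, adjusted p = 0.000243 in control and 1.06 ± 0.19, adjusted p = 0.0024 in WT), as did Ptpn6, the phosphatase SHP-1 (0.59 ± 0.12, adjusted p = 0.00233 and 0.64 ± 0.11, adjusted p = 0.00196). Fcer1g fell (-0.60 ± 0.12, adjusted p = 0.00217 and -1.19 ± 0.16, adjusted p = 0.000605), and Tyrobp rose in control cells (0.70 ± 0.13, adjusted p = 0.00202) and was not called in WT cells (-0.14 ± 0.12, adjusted p = 0.351). Lyn, a Src family kinase, and Inpp5d, the phosphatase SHIP-1, also fell in both (-0.80 ± 0.10, adjusted p = 0.000238 and -0.75 ± 0.11, adjusted p = 0.000364 in control).

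By the edgeR quasi-likelihood test neither deficiency moved a single member past the adjusted threshold, although most members were slightly lower in deficient osteoclasts. In SREBP2ΔM against control osteoclasts 0 of 39 members were called (edgeR), beside 0.0372% of all genes. At an unadjusted p under 0.05, 7 were lower and none higher, beside 2.72% and 0.901% of all genes. The likelihood ratio test of edgeR and the Wald test of DESeq2 each called 1 member, Cd300ld, and limma-voom called none. Of all genes these tests called 0.26%, 0.232% and 0.0465%. In IRF7KO against WT osteoclasts 0 of 37 were called, beside 0.0185% of all genes, with 5 lower and none higher at an unadjusted p under 0.05, beside 2.45% and 0.491%. The other 3 tests called none, beside 0.26% (likelihood ratio), 0.208% (Wald) and 0% (limma-voom) of all genes. The log2 fold change was below 0 for 37 of 39 members in SREBP2ΔM (47.4% of all genes) and for 31 of 37 in IRF7KO osteoclasts (48.6%), with a median of -0.35 in each. The 31 members below 0 in IRF7KO were below 0 in SREBP2ΔM osteoclasts as well, beside 26.5% of all genes.

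The macrophage markers were lower too. In SREBP2ΔM osteoclasts 7 of 8 had a log2 fold change below 0 (median -0.29) and in IRF7KO osteoclasts 6 of 8 (median -0.32), none of them called, and their part in the lower receptor levels was not tested. The 10 osteoclast markers had medians of 0.00 and 0.21.

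**Figure D5:**
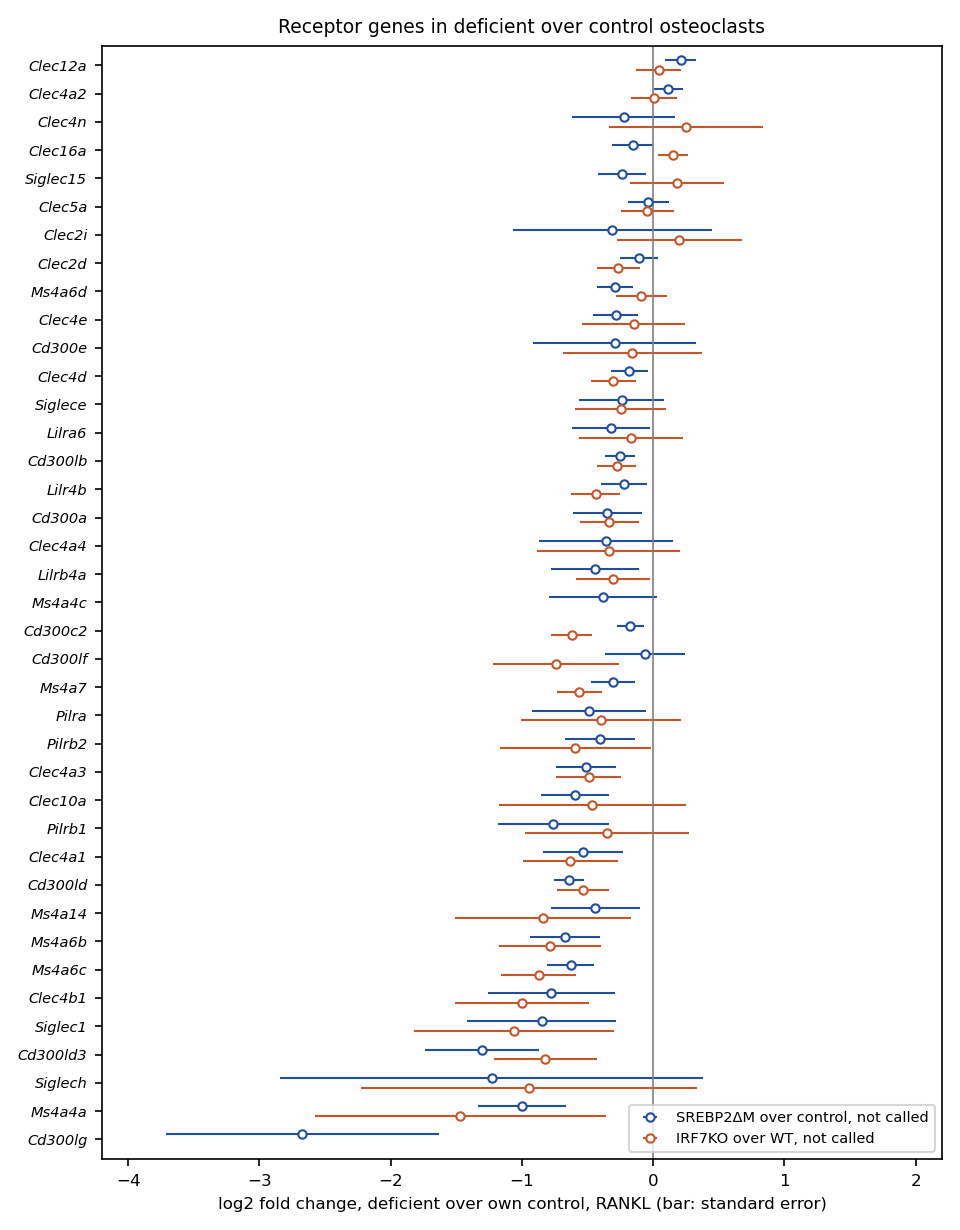
Log2 fold change of deficient over own control osteoclasts for each member (points, with standard errors) in both experiments, ordered by the mean of both, with open points because no adjusted p is under 0.05. Of the members, 31 of 37 tested in both lie left of 0 in both experiments, and Clec12a and Clec4a2 lie at or right of 0 in both.

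Only Cd300ld and Ms4a6c reached an unadjusted p under 0.05 in both experiments, beside 0.736% of all genes that did so in the lower direction. Cd300ld (CLM-5), an activating member that pairs with FcRγ, held 118 and 102 CPM in control and 72.4 and 67.9 CPM in SREBP2ΔM osteoclasts (log2 fold change -0.64 ± 0.11, unadjusted p = 0.00033, adjusted p = 0.216). It held 44.0 and 41.4 CPM in WT and 33.2 and 25.5 CPM in IRF7KO osteoclasts (log2 fold change -0.54 ± 0.20, unadjusted p = 0.0271, adjusted p = 1). In both experiments the deficient libraries lay below both controls. In macrophages the values were 285 and 272 against 237 and 238 CPM and 193 and 149 against 160.3 and 124 CPM. RANKL lowered it in control (log2 fold change -1.34 ± 0.11, adjusted p = 1.89e-05) and in WT cells (log2 fold change -2.00 ± 0.20, adjusted p = 0.000131). The interaction of genotype and RANKL was a log2 fold change of -0.41 ± 0.16, unadjusted p = 0.0275, adjusted p = 1, in the SREBP2 experiment.

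Ms4a6c, an interferon-responsive MS4A gene that the study lists among genes it chose from these same libraries, so that its direction here is not independent evidence, held 102 and 100.2 CPM in control and 60.6 and 70.6 CPM in SREBP2ΔM osteoclasts (log2 fold change -0.63 ± 0.18, unadjusted p = 0.00676, adjusted p = 0.936). It held 28.4 and 28.4 CPM in WT and 19.1 and 12.0 CPM in IRF7KO osteoclasts (log2 fold change -0.87 ± 0.29, unadjusted p = 0.0165, adjusted p = 1). In macrophages the libraries overlapped, at 188 and 129 against 131 and 148 CPM and 181 and 111 against 136 and 116 CPM. RANKL lowered it in WT cells (log2 fold change -2.36 ± 0.28, adjusted p = 0.000315) and in control cells (log2 fold change -0.65 ± 0.17, adjusted p = 0.0114), the latter a call lost without the first macrophage library (log2 fold change -0.35, adjusted p = 0.0867) and without either osteoclast library (log2 fold change -0.67, adjusted p = 0.0524 and log2 fold change -0.66, adjusted p = 0.0531).

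The libraries of deficient and control osteoclasts did not overlap, with the deficient ones lower, for 9 of 37 members in both experiments, beside 4.1% of all genes: Cd300c2, Cd300ld, Cd300ld3, Clec4b1, Lilr4b, Ms4a4a, Ms4a6b, Ms4a6c and Ms4a7. Ms4a7 held 23.1 and 25.3 CPM in WT and 15.6 and 17.2 CPM in IRF7KO osteoclasts (log2 fold change -0.56 ± 0.17, unadjusted p = 0.0116, adjusted p = 1), and 94.1 and 103 against 80.9 and 78.4 CPM in the SREBP2 experiment (log2 fold change -0.31 ± 0.17, unadjusted p = 0.0978, adjusted p = 1). Ms4a6b held 36.5 and 30.0 against 19.5 and 22.2 CPM (log2 fold change -0.67 ± 0.27, unadjusted p = 0.0356, adjusted p = 1) and 6.90 and 9.87 against 5.42 and 4.48 CPM (log2 fold change -0.79 ± 0.39, unadjusted p = 0.0785, adjusted p = 1). As a family the MS4A genes lay below 0 in 7 of 7 and 6 of 6 cases, with medians of -0.44 in SREBP2ΔM and -0.81 in IRF7KO osteoclasts. The other members with an unadjusted p under 0.05 were Cd300ld3, Cd300lg, Clec10a and Ms4a4a in SREBP2ΔM, and Cd300c2 and Lilr4b in IRF7KO osteoclasts. Clec7a, no member, was lower in SREBP2ΔM (log2 fold change -0.71 ± 0.24, unadjusted p = 0.015, adjusted p = 1) and in IRF7KO osteoclasts (log2 fold change -0.53 ± 0.23, unadjusted p = 0.0526, adjusted p = 1). The log2 fold change of Siglec1 was -0.85 ± 0.57 in SREBP2ΔM and -1.06 ± 0.76 in IRF7KO osteoclasts, with overlapping libraries in both. Siglec15 was not called in SREBP2ΔM (log2 fold change -0.24 ± 0.18, unadjusted p = 0.225, adjusted p = 1) or in IRF7KO osteoclasts (log2 fold change 0.18 ± 0.36, unadjusted p = 0.626, adjusted p = 1). The same held for Clec5a (log2 fold change -0.04 ± 0.15, unadjusted p = 0.814, adjusted p = 1 in SREBP2ΔM, and log2 fold change -0.04 ± 0.20, unadjusted p = 0.833, adjusted p = 1 in IRF7KO). A p above the threshold does not show that levels were equal.

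The 7 members with the response element had log2 fold changes below 0 in both osteoclast comparisons, beside 26.5% of all genes. Most members did so with or without the element, 31 of the 37 tested in both. Pilra, Pilrb1 and Pilrb2 are among the 7, and their aligned promoters were 97.3% to 99.2% identical, so these are not separate cases. In IRF7KO osteoclasts the 7 ran from -0.26 (Clec2d) and -0.31 (Clec4d) to -0.62 (Cd300c2) and -1.0 (Clec4b1). The members without the element also covered this range, and none of the 7 was called.

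In macrophages the genotypes were closer. No member was called in either experiment by the edgeR quasi-likelihood test (beside 0.0557% of all genes for SREBP2ΔM and 0.0185% for IRF7KO). None was called by the likelihood ratio test (0.177% and 0.0834% of all genes), the DESeq2 Wald test (0.186% and 0.0371%) or limma-voom (0.0836% and 0.00927%). At an unadjusted p under 0.05 there was 1 of 39 in SREBP2ΔM (beside 1.32% of all genes) and 0 of 37 in IRF7KO macrophages (1.31%). The single gene was Clec4e, at 67.9 and 84.6 CPM in control and 53.7 and 56.8 CPM in SREBP2ΔM macrophages (log2 fold change -0.46 ± 0.15, unadjusted p = 0.0126, adjusted p = 1). The neutrophil markers of these SREBP2ΔM cultures summed to 65.1 and 153 CPM, against 242 and 260 CPM in control cultures, and their part was not tested. In IRF7KO macrophages Clec4e lay the other way, at 27.6 and 24.7 CPM in WT and 49.2 and 37.4 CPM in IRF7KO cells (log2 fold change 0.73 ± 0.37, unadjusted p = 0.0836, adjusted p = 1). The neutrophil markers there summed to 293 and 599 CPM in WT and 373 and 1167 CPM in IRF7KO cultures, with all 8 tested above 0 and a median log2 fold change of 0.77, and their part was not tested. Medians over the members were -0.11 and -0.02.

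Genotype did not change the RANKL response of a member past the adjusted threshold. The interaction called 0 of 39 and 0 of 37 members, as it called 0% of all genes in either table, with 2 and 1 at an unadjusted p under 0.05 (1.11% and 1.12% of all genes), and the other 3 tests called none. These were Cd300ld and Cd300lg in the SREBP2 experiment and Ms4a7 in the IRF7 experiment. For Ms4a7 the fall with RANKL was -3.25 in WT and -3.95 in IRF7KO cells, an interaction with a log2 fold change of -0.70 ± 0.23, unadjusted p = 0.0162, adjusted p = 1. Cd300lg fell by 2.30 on the log2 scale in control cells, and its 87 counts in SREBP2ΔM macrophages faced 2 in osteoclasts, a ratio of 34.8 (9.34 to 292).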

How the data were processed

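The authors sequenced polyadenylated RNA (stranded TruSeq libraries, paired ends), trimmed reads with fastp and aligned them with STAR 2.7.3a to mm10, per the labels. Which counting tool, strand setting and gene annotation they used is not stated in the sources at hand. The values used are raw counts per gene as deposited by the authors, restricted to the 10764 and 10788 genes they kept (about 3 CPM in a group). The log2 CPM values also deposited by the authors were not used, nor were their comparison columns. Each experiment was fitted separately on all 8 libraries with 4 groups (edgeR 4.0.16 in R 4.3.3, TMM, robust quasi-likelihood test, 4 residual degrees of freedom, two-sided), and p-values were adjusted by Benjamini-Hochberg over all genes. Each standard error is the size of the fold change over root F. A call is an adjusted p under 0.05. Errors after ± are standard errors for fold changes and SDs (n = 2) for levels. Levels per kb were divided by merged exon length.

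Alternatives used DESeq2 1.42.0 and limma 3.58.1. Scripts were tested on simulated data. Members given with all values were those called by genotype, up to 10 in each direction, by size of change, of those that RANKL called the same way in control and WT cells, those with an unadjusted p under 0.05 in both osteoclast comparisons, those called in opposite directions, and Siglec15, Siglec1, Clec7a, Clec5a, Ms4a6c and Ms4a7. Other members named here were chosen after their values were seen. The members, lists and motifs were chosen with earlier results of these data known. Replicate libraries differed by more than sampling noise. Sequences are RefSeq promoters of GRCm38.p6.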

Additional observations from a re-analysis of the deposited data

Results flagged for a closer look

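Clec7a stood apart because RANKL moved it in opposite directions in the 2 control genotypes. All 4 osteoclast libraries of the SREBP2 experiment lay above their macrophage libraries and all 4 of the IRF7 experiment lay below theirs. The log2 fold change was 1.70 in control and -0.97 in WT cells, which differ by 2.67. This difference was not tested, since the experiment and the control strain cannot be told apart.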

How the results depend on the processing

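Under 9 kinds of alternative no named result changed direction. Of the alternative values for single members, 1759 stayed on the same side of the threshold, 78 lost a call and 35 gained one. Members called in SREBP2ΔM against control osteoclasts went from 0 to 1 with the edgeR likelihood ratio test (Cd300ld, beside 0.26% of all genes) and 1 with the DESeq2 Wald test (Cd300ld, beside 0.232%). They went to 5 with no filter on low counts (Cd300ld, Ms4a4a, Ms4a6b, Ms4a6c and Siglec1, beside 0.614% of all genes). With no filter, 2 members were called in IRF7KO against WT osteoclasts (Ms4a6c and Siglec1, beside 0.432%) and 2 in IRF7KO against WT macrophages (Clec4e and Siglec1, beside 0.264%). In that edgeR fit some adjusted p-values were far smaller at nearly the same fold change. Siglec1 with RANKL in control cells, not called in the main fit at -1.51, had -1.52, adjusted p = 6.98e-25. Pilra in WT cells, not called at -1.51, had -1.56, adjusted p = 2.64e-15. Calls of the unfiltered fit should be read with that in mind. The cause was not tested. Leaving out 1 library at a time gave 23 to 30 calls for RANKL in control, 27 to 29 in SREBP2ΔM, 26 to 30 in WT and 26 to 31 in IRF7KO cells, and 0 to 0 for each genotype comparison and interaction. Where a library was left out, the lone sample of its group was assumed to vary like the other groups. The labels do not say that equal replicate numbers share a mouse or day. The replicate differences of 2 groups correlated across genes at 0.11 to 0.68 (SREBP2 experiment) and 0.06 to 0.72 (IRF7 experiment). The highest value in each experiment was that of deficient with control osteoclasts, and the main tests did not pair their libraries. With the replicate number as a block, RANKL called 33 of 39 members in control, 32 of 39 in SREBP2ΔM, 33 of 37 in WT and 35 of 37 in IRF7KO cells. Each genotype comparison and interaction called 0. In osteoclasts the block called 0.0557% (SREBP2ΔM) and 0.0185% (IRF7KO) of all genes, and in macrophages 0.0465% and 0.0278%. The share of all genes that RANKL called with the block, or with a library left out, is not given here. Under this block Siglec1 passed in control cells (-1.51, adjusted p = 0.0155), as did Ms4a4a (-1.69, adjusted p = 0.0119) and Pilra (-1.40, adjusted p = 0.000464) in WT cells and Cd300e (-1.34, adjusted p = 0.0292) in IRF7KO cells. Leaving out the 9 members that share 10% or more of their sequence or exons with other genes, an alternative chosen after seeing the data, left 26 calls in control, 24 in SREBP2ΔM, 23 in WT and 24 in IRF7KO cells. These are calls of the main fit, whose shares of all genes are given above. With 2 libraries a group, and with 1 count worth 0.0747 to 0.130 CPM, falls of genes near 0 are the least precise.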
